A study of Saccharomyces cerevisiae with 12 samples.

Results

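HAP1, HAP2, HAP3, HAP4 and HAP5 of Saccharomyces cerevisiae, budding yeast, encode regulators that switch on genes of respiration. They were found by gene symbol among the 5449 genes with a probe set on the array, and all 5 had exactly 1 probe set each. Total RNA was read on 12 one-colour Affymetrix arrays, 3 each from yeast grown at 0.25%, 0.5%, 1% and 2% glucose, and the series design calls the 3 biological replicates. The sources used here name no strain, growth phase or time of sampling, apart from an unexplained word log in each sample title. No mutant is labelled, and the labels of the 4 groups differ in glucose alone. Values are linear signals, 1 per probe set, as scaled by the authors. The arrays read RNA of whole cultures, so a higher level in every cell and a larger share of cells with the transcript cannot be told apart.

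Hap2, Hap3 and Hap5 together bind the CCAAT box in promoters of respiratory genes and are the yeast counterparts of the NF-Y complex of other eukaryotes. Hap4 does not bind DNA alone: it joins the bound trimer and carries the activation domain, and its gene is known to be repressed by glucose. Hap1 is a separate zinc cluster protein that is activated by haem, and it acts on genes of respiration, of sterol synthesis and on ROX1, which encodes a repressor of hypoxic genes. In the laboratory strain S288C the HAP1 gene carries a Ty insertion near its end, and which HAP1 allele these cells carried is not stated in the labels.

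HAP4 was the member that changed. Its transcript was 2.10-fold higher at 0.25% than at 2% glucose and lay between these at 0.5%, while at 1% it was close to the 2% level. HAP1, HAP2, HAP3 and HAP5 did not pass a test in any comparison of levels. Of 37 genes listed as targets of the Hap2/3/4/5 complex, 13 rose at 0.25% against 2% and 0 fell, with smaller log2 differences than that of HAP4. Over all genes 3.34% were called higher and 1.01% lower. The count of 13 became 7 without 1 of the arrays at 2%, where 115 of all genes were called in either direction, against 237. It became 21 with the replicate number as a block, where 6.59% of all genes were called higher. With an RNA quality covariate, described below, it was 0 and HAP4 was not called either, where 6 of all 5449 genes were called.

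HAP4, the activating subunit, had signals of 146, 114 and 189.6 on the arrays of 0.25% glucose, 94.97, 101 and 119 at 0.5%, 66.1, 71.1 and 78.5 at 1%, and 82.5, 75.0 and 54.8 at 2%. All 3 arrays at 0.25% and all 3 at 0.5% lay above all 6 arrays at 1% and 2%, whereas the 0.25% and 0.5% arrays overlapped, as did those of 1% and 2%. The share of all genes with this split was not counted, and shares for pairs of levels are given below. The means were 149.8 ± 37.9 at 0.25%, 105 ± 12.3 at 0.5%, 71.9 ± 6.23 at 1% and 70.7 ± 14.4 at 2% (SD, n = 3 each). HAP4 was a dim transcript here: its mean over the 12 arrays, 99.4, stood at percentile 22.3 of all genes. A dim filter at percentile 25 (a signal of 111) would leave it out of the test, so differences were tested on all 5449 genes.

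**Figure D1:**
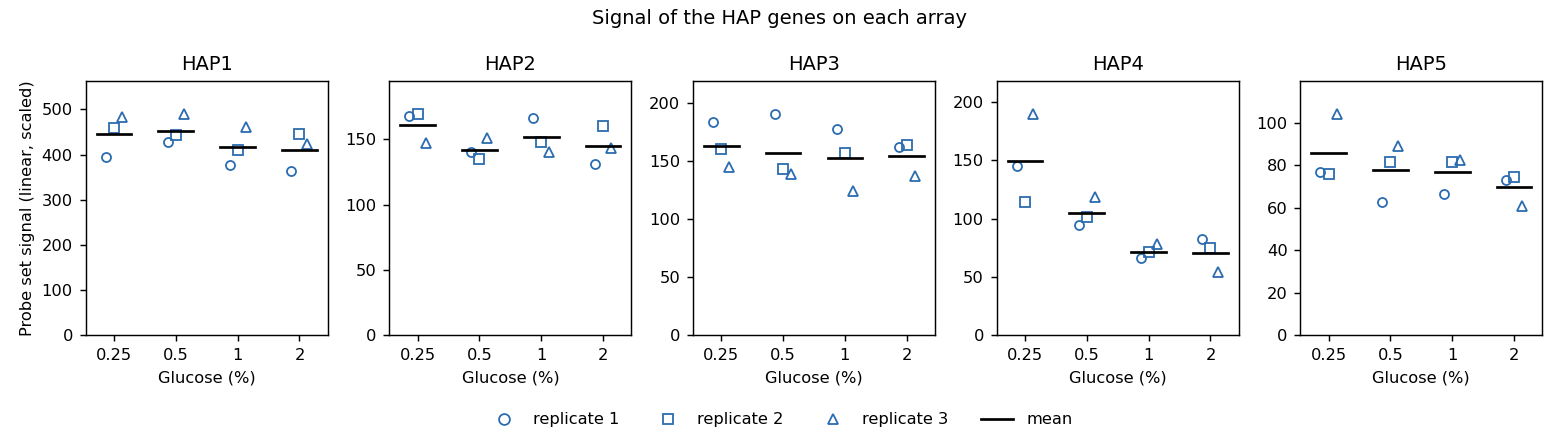
Signal (linear scale, starting at 0) of each HAP gene against the glucose level in percent; each symbol is 1 array, its shape gives the replicate number and the bar is the mean of 3 arrays. The HAP4 signals at 0.25% (114 to 189.6) and 0.5% (94.97 to 119) lie above those at 1% and 2%, and the arrays of the different levels overlap for HAP1, HAP2 and HAP3.

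At 0.25% against 2% glucose HAP4 rose by 1.07 on the log2 scale (SE 0.19, limma adjusted p = 0.00362), a fold of 2.10 with a 95% interval from 1.59 to 2.78. It was 1 of 5 members called, where 4.35% of all genes were called and 3.34% were called higher, and stood at position 69 of 5449 by p. With the 3 arrays of each level not overlapping, it shared that feature with 20.5% of all genes. Leaving out each of the 12 arrays in turn gave log2 differences from 0.89 to 1.25 and adjusted p from 0.00183 to 0.0203. The arrays at 2% differed from the rest in RNA quality controls: log2 ratios of 3' to 5' probe sets, averaged per array across 7 control genes, ran from 0.84 to 0.93 at 0.25%, against 1.19 to 1.42 at 2%. With that ratio as a covariate the difference was 1.86 with a standard error of 0.46, and adjusted p was 0.363.

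The 1% arrays had 3' to 5' ratios from 0.82 to 0.94, much like those at 0.25%, so the lowest level was also set against 1%, a comparison added after the data were seen. HAP4 rose there by 1.03 (SE 0.19, limma adjusted p = 0.0149), 2.04-fold with an interval from 1.55 to 2.70. In this comparison 0.789% of all genes were called higher, and 11.9% had arrays that did not overlap. With the 3' to 5' ratio as a covariate the difference was 1.02 (adjusted p = 0.0122). HAP4 missed the threshold when single arrays were left out, namely replicate 1 (limma adjusted p = 0.0508) or 3 (0.0813) at 0.25% and replicate 1 (0.0536) or 2 (0.0802) at 1%, and with the 2 levels alone in the fit (0.0509), while the difference stayed between 0.85 and 1.21.

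In the other 4 comparisons of levels 0 of the 5 members were called by limma. At 0.5% against 2% glucose HAP4 was higher by 0.58 without passing (adjusted p = 0.165, fold interval from 1.14 to 1.98), where 1.01% of all genes were called higher and 20.3% had arrays that did not overlap, as HAP4 did. The replicate number as a block gave an adjusted p of 0.0628 for the same difference. At 0.5% against 1% the difference was 0.54 (interval 0.14 to 0.94, adjusted p = 0.998, where 0.0734% of all genes were called, 0.0551% higher and 0.0184% lower, and 8.46% had arrays that did not overlap), and at 0.25% against 0.5% it was 0.49 (interval 0.09 to 0.89, adjusted p = 1, with 0.11% of all genes called and 10.6% not overlapping). These 2 intervals, which are not adjusted for the number of genes, lie above 0 and are close to each other. At 1% against 2% the difference was 0.04, with an interval from -0.36 to 0.44, where 0.184% of all genes were called, 0.0184% lower, and 11.4% had arrays that did not overlap.

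A trend across all 4 levels was tested as a slope on the log2 of the glucose percentage. HAP4 fell by 0.38 on the log2 scale with each doubling of glucose (SE 0.06, limma adjusted p = 0.00147), with 5.16% of all genes called, 3.85% higher and 1.3% lower toward low glucose. Without any single array the slope stayed between -0.43 and -0.32, with adjusted p from 0.000783 to 0.00711. A test for any difference between the levels also called HAP4 (F-test over the contrasts against 2%, adjusted p = 0.0107), with 2.22% of all genes called. In neither test was another HAP gene called.

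HAP2, HAP3 and HAP5 encode the subunits that bind DNA. HAP2, whose protein contacts the CCAAT sequence, had signals of 168, 169 and 147 at 0.25% glucose, 140.2, 135 and 151 at 0.5%, 166, 148 and 140.4 at 1%, and 131, 160.3 and 144 at 2%. The arrays of all 4 levels overlapped. At 0.25% against 2% HAP2 was at 0.15 on the log2 scale (limma adjusted p = 0.55), and the interval of the fold, 0.94 to 1.31, leaves out a change of the size seen in HAP4.

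HAP3, a histone-fold subunit, had signals of 184, 161 and 145 at 0.25% glucose, 190.3, 143 and 138 at 0.5%, 177, 157 and 124 at 1%, and 162, 164 and 137 at 2%. The spread within a level, up to 28.7 (SD) at 0.5%, was larger than the span of the 4 level means, which ran from 153 to 163. Its difference at 0.25% against 2% was 0.08 (adjusted p = 0.86, fold interval 0.84 to 1.33).

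HAP5, the other histone-fold subunit, was the dimmest member, with a mean of 77.5 at percentile 17.7 of all genes. Its signals were 76.9, 76.2 and 104 at 0.25% glucose, 62.8, 81.5 and 89.2 at 0.5%, 66.7, 81.5 and 82.6 at 1%, and 73.3, 74.7 and 60.9 at 2%. The arrays at 0.25% lay above those at 2%, while those at 0.5% and 1% overlapped both; 20.5% of all genes had arrays at 0.25% and 2% that did not overlap. HAP5 was at 0.29 in that comparison without passing (limma adjusted p = 0.433), and its fold interval of 0.95 to 1.57 ends just below the interval of HAP4. Without replicate 3 at 0.25%, the array with the signal of 104, the difference was 0.14. HAP4 also had its highest signal, 189.6, on that array. Pearson's r between the log2 signals of HAP5 and HAP4 was 0.702 over the 12 arrays, and 0.823 for deviations from the level means.

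HAP1, the haem-responsive activator, was the brightest member, at percentile 67.7 of all genes. Its signals were 395, 459.6 and 483 at 0.25% glucose, 427, 442 and 489 at 0.5%, 377, 409 and 461 at 1%, and 364, 445 and 423 at 2%. The arrays of all levels overlapped. The difference at 0.25% against 2% was 0.12 (limma adjusted p = 0.663), with a fold interval from 0.92 to 1.28, and it was -0.02 with the ribosomal RNA signal of each array as a covariate. That signal also differed by level, with log2 means of 7.77 at 2% and 8.90, 9.08 and 8.92 at 0.25%, 0.5% and 1%. This covariate is therefore partly confounded with the 2% level.

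**Figure D2:**
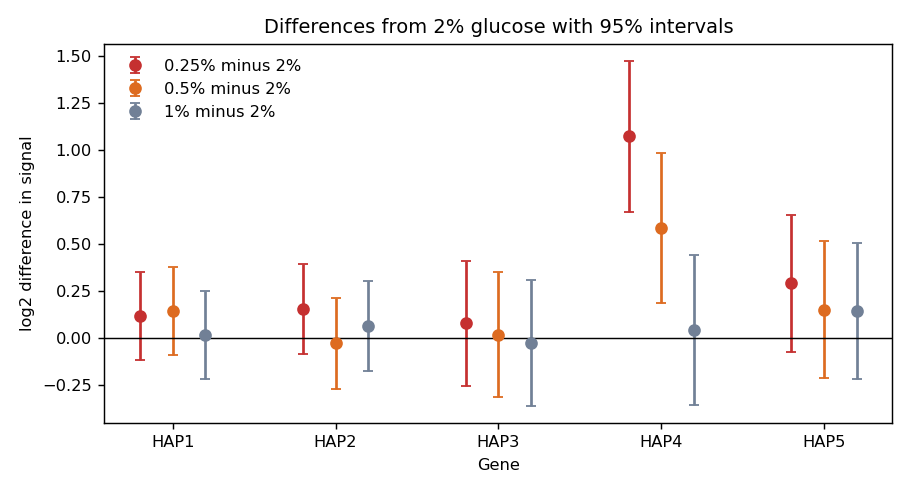
Differences of log2 signal between each lower glucose level and 2%, for the 5 HAP genes; points are limma estimates and bars are 95% intervals, and the 3 comparisons share the 2% arrays. The HAP4 point at 0.25% is 1.07, and the intervals of the other genes all include 0.

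Whether HAP4 moved apart from its partners was tested within arrays, which does not depend on the scaling between arrays. The log2 signal of HAP4 minus the mean log2 signal of HAP2, HAP3 and HAP5, set to 0 at the 2% mean, was 0.86, 0.57 and 1.27 on the 0.25% arrays, 0.41, 0.53 and 0.68 at 0.5%, -0.19, -0.07 and 0.21 at 1%, and 0.24, -0.01 and -0.23 at 2%. All 6 arrays at 0.25% and 0.5% lay above all 6 at 1% and 2%, the same split as in the HAP4 signals themselves. The difference fell by 0.33 with each doubling of glucose (two-sided exact permutation p = 0.000725 over all arrangements of the arrays, the smallest possible p being 5.41e-06). With arrays rearranged only within a replicate number, the exact permutation p was 0.00217. This slope was not tested with the 3' to 5' ratio or the ribosomal RNA signal as a covariate. Leaving out single arrays kept the slope between -0.37 and -0.27, with exact permutation p from 0.000357 to 0.00877.

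**Figure D3:**
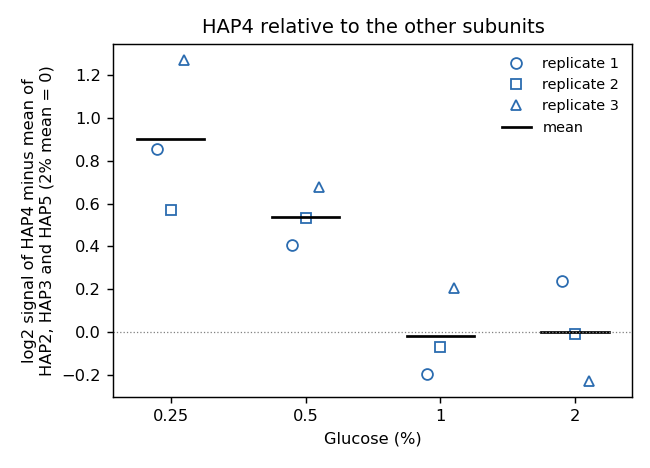
Log2 signal of HAP4 minus the mean log2 signal of HAP2, HAP3 and HAP5 on each array against the glucose level in percent, set to 0 at the mean of 2%; symbols are arrays by replicate number and bars are means of 3. The 0.25% and 0.5% arrays run from 0.41 to 1.27 and the 1% and 2% arrays from -0.23 to 0.24.

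The 37 listed targets of the Hap2/3/4/5 complex are genes of cytochrome c and the respiratory chain, the tricarboxylic acid cycle, ATP synthase, haem synthesis and mitochondrial superoxide dismutase. All 37 were brighter than the dim limit. At 0.25% against 2% glucose 13 were called higher and 0 lower, where 3.34% of all genes were called higher. The list median was a log2 difference of 0.29, against 0.00 over all genes, and 36 of the 37 values were positive, against 50% of all genes. The count was 7 without replicate 1 at 2%, where 115 of all genes were called in either direction, against 237 in the main fit. It was 21 with the replicate number as a block, where 6.59% of all genes were called higher. With the 3' to 5' ratio as a covariate, which sets all 2% arrays apart from the rest, 0 of the 37 were called. In that setting 6 of all 5449 genes were called, and the differences of the called targets under this covariate are given below. The ratio and the 2% level cannot be told apart in these arrays. At 0.5% and at 1% against 2%, 0 of the 37 were called without the block and 6 at 0.5% with it, where 3.25% of all genes were called higher, and the list medians were 0.07 and 0.08, against -0.04 and -0.01 over all genes.

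Succinate dehydrogenase, which joins the tricarboxylic acid cycle to the respiratory chain, rose in 3 of its 4 genes at 0.25% against 2%, where 3.34% of all genes were called higher. SDH2, the iron-sulfur subunit, had signals of 335, 332 and 305 at 0.25% glucose, against 163, 209 and 227 at 2%, a rise of 0.71 (SE 0.12). SDH1, the flavoprotein, rose by 0.63 and SDH4, a membrane anchor, by 0.44, while SDH3 was at 0.24 (adjusted p = 0.234). Under the 3' to 5' covariate SDH2 was at 0.012, SDH1 at 0.17 and SDH4 at 0.25 (limma adjusted p = 0.999 for each). SDH4 missed the threshold when replicate 1 at 2% was left out (adjusted p = 0.0504).

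Of 10 genes of cytochrome c and its reductase 5 rose at 0.25% against 2%, where 3.34% of all genes were called higher. RIP1, the Rieske protein, had the largest difference of the list, 0.86, and cytochrome c1, encoded by CYT1, rose by 0.71. The core subunits COR1 and QCR2 rose by 0.50 and 0.53 and the small subunit QCR9 by 0.33. CYC1, iso-1-cytochrome c and the classical target of both Hap1 and the Hap2/3/4/5 complex, had signals of 654, 729 and 630.5 at 0.25%, against 577, 542 and 494 at 2%, a difference of 0.32 that did not pass (limma adjusted p = 0.101, but 0.00889 when blocked by replicate and 0.0494 after quantile normalization). QCR7, another small subunit, was at 0.35 (adjusted p = 0.0851, but 0.00269 when blocked, 0.0421 after quantile normalization and 0.0467 without replicate 1 at 1%). QCR2 and QCR9 each missed the threshold on leaving out 1 of 6 arrays (highest adjusted p 0.169 and 0.103), in a fit of the 2 levels alone (0.0597 and 0.08), and given the ribosomal RNA covariate (0.165 and 0.0632). CYT1 missed it on leaving out replicate 1 at 2% (0.0547) and with the ribosomal RNA covariate (0.0501). RIP1 was at 0.23 with the 3' to 5' covariate, CYT1 at 0.36, COR1 at 0.31, QCR2 at 0.34 and QCR9 at 0.40, and 0 of them passed (limma adjusted p = 0.999 for each).

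Of the other enzymes, COX4 was the 1 called gene among 8 of cytochrome c oxidase, at 0.66, and the 8 had a median of 0.23. For this count and those that follow, 3.34% of all genes were called higher. In the tricarboxylic acid cycle 2 of 9 genes rose, CIT1, citrate synthase, by 0.65 and MDH1, malate dehydrogenase, by 0.53, whereas ACO1, aconitase, was at -0.05 (adjusted p = 0.862). ATP1 and ATP3 of ATP synthase rose by 0.30 and 0.45, and ATP2 was at 0.56 and did not pass (0.145, but 0.00104 when blocked). ATP1 missed the threshold on leaving out 1 of 4 arrays (up to 0.128), under median scaling (0.127), in a fit of the 2 levels alone (0.0911), and given the ribosomal RNA covariate (0.151). ATP3 missed it on leaving out 1 of 2 arrays (up to 0.0638) and with the ribosomal RNA covariate (0.0817). COX4 was at 1.16 with the 3' to 5' covariate (adjusted p = 0.502), CIT1 at 0.16, MDH1 at 0.46, ATP1 at 0.30 and ATP3 at 0.35 (0.999 for each of these 4). HEM1, the first enzyme of haem synthesis, and SOD2 were at 0.20 and 0.09 and did not pass.

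**Figure D4:**
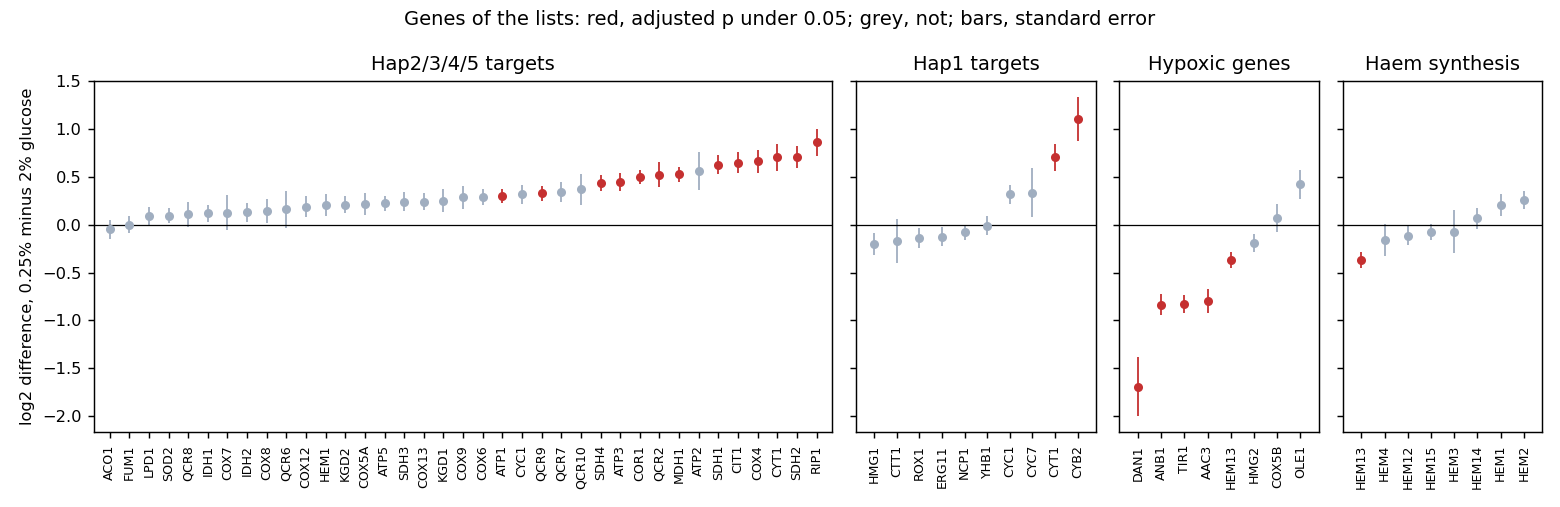
Log2 differences between 0.25% and 2% glucose for the genes of 4 lists, ordered by size within each list; red points passed (limma adjusted p under 0.05), grey points did not, and bars are standard errors. In the list of Hap2/3/4/5 targets 36 of 37 points are above 0, with RIP1 highest at 0.86, and the called hypoxic genes all lie below 0.

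The 2% arrays, with their higher 3' to 5' ratio, enter every one of these values, so the targets were also read at 0.25% against 1%. There 4 of 37 were called higher, where 0.789% of all genes were, and the list median was 0.25, against 0.01 over all genes. The 4 were MDH1 (0.39, limma adjusted p = 0.0183), QCR9 (0.37, 0.0389), SDH1 (0.46, 0.0485) and COR1 (0.35, 0.0494). COR1 had signals of 732, 762 and 705 at 0.25% and 577, 552 and 599 at 1%, and 516, 485 and 554 at 2%. MDH1 had 1138, 1193 and 1262 at 0.25%, 914, 926 and 903 at 1%, and 784, 876 and 834 at 2%, so that these levels did not overlap. Between 0.25% and 1%, 11.9% of all genes had arrays that did not overlap, and the share over several levels was not counted. The number called was 8 with the replicate block, where 1.76% of all genes were called higher. It was 1 with median scaling, 0 with the 2 levels alone in the fit, 1 without replicate 1 at 0.25% or any array at 0.5%, 2 without replicate 1 at 1%, and 0 without replicate 2 or 3 at 0.25% or replicate 2 or 3 at 1%. Over all genes 52 were called in either direction in the main fit and 25 with the 2 levels alone. On leaving out single arrays that number ran from 20, without replicate 2 at 1%, to 57.

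Hap1 and the repressor Rox1, whose gene Hap1 activates, control a second set of genes. Of 10 listed Hap1 targets 2 rose at 0.25% against 2% glucose, where 3.34% of all genes did, and the list median was -0.04. They were CYT1, which is also in the list of the Hap2/3/4/5 complex, and CYB2, the lactate dehydrogenase of mitochondria. CYB2 was dim, with signals of 36.8, 43.3 and 43.3 at 0.25% and 14.5, 27.0 and 17.7 at 2%, and rose by 1.10 (SE 0.23, adjusted p = 0.013). CYB2 missed the threshold without replicate 2 or 3 at 0.25% or replicate 1 at 2% (adjusted p up to 0.0729), and was at 0.48 with the 3' to 5' covariate, where 0 Hap1 targets and 6 of all 5449 genes were called. With 1 array or setting changed, the number called was 0 without replicate 1 at 2% or with the ribosomal RNA covariate, and 1 without replicate 2 or 3 at 0.25%, with the dim filter or with the 2 levels alone in the fit. The replicate block gave 3, where 6.59% of all genes were called higher. At 0.25% against 1% the block gave 1 (0 unblocked), where 1.76% of all genes were called higher. Over all genes 115 were called without replicate 1 at 2%, 148 with the ribosomal RNA covariate and 133 with the 2 levels alone, against 237 in the main fit. ROX1 had signals of 165, 204 and 182 at 0.25% and 192, 210.5 and 202 at 2%, a difference of -0.14 (adjusted p = 0.597), and its arrays overlapped.

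Of 8 hypoxic genes, most of them known as targets of Rox1, 5 fell at 0.25% against 2% glucose, where 1.01% of all genes were called lower, and the list median was -0.58. The cell wall mannoprotein gene TIR1 had signals of 492, 465 and 425 at 0.25% and 811, 855 and 787 at 2%, and fell by 0.83 (SE 0.10). ANB1, a form of translation factor eIF5A used without oxygen, fell by 0.83, AAC3, the anaerobic ADP/ATP carrier, by 0.80, and HEM13, an oxygen-requiring enzyme of haem synthesis, by 0.37. DAN1, another mannoprotein, fell by 1.69 between very dim signals, 6.32 to 9.82 at 0.25% and 22.9 to 30.5 at 2%. With the 3' to 5' covariate 0 of the 8 were called lower by limma, with TIR1 at -0.74, ANB1 at -0.70, AAC3 at -0.82, HEM13 at -0.72 and DAN1 at -0.60 (adjusted p from 0.664 to 0.999). In that setting 6 of all 5449 genes were called. OLE1, the fatty acid desaturase, was at 0.42 and did not pass (adjusted p = 0.157, but 0.000901 when blocked). HEM13 missed the threshold on leaving out 1 of 5 arrays (highest adjusted p 0.107), after quantile normalization and with the 2 levels alone in the fit. At 0.5% against 2%, where 0.349% of all genes were called lower, TIR1, ANB1 and AAC3 were called lower, with a list median of -0.45. With the replicate block, where 4.22% of all genes were called lower, HMG2 (adjusted p = 0.0314) and HEM13 (0.0437) were also lower at that level and OLE1 was higher (0.00388). At 0.25% against 1%, where 0.165% of all genes were called lower, 3 of the 8 were called lower, TIR1 by 0.63, ANB1 by 0.59 and DAN1 by 1.61. The block, where 0.44% of all genes were called lower, added HEM13 (adjusted p = 0.0327) and AAC3 (0.0484).

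Haem is the cofactor that activates Hap1. Of 8 genes of haem synthesis 0 were called higher and 1 lower by limma at 0.25% against 2% glucose, where 3.34% of all genes were called higher and 1.01% lower, and the list median was -0.07. The 1 gene was HEM13, whose call was lost under the settings given above. HEM2, the second enzyme of the pathway, was at 0.25 (adjusted p = 0.175, but 0.0328 when blocked, which made the number called higher 1).

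HAP4 was set beside other regulators of glucose repression. ADR1 and CAT8, activators of genes for the use of ethanol and other carbon sources, were dim like HAP4 and rose by more at 0.25% against 2% glucose, ADR1 by 1.91 (signals 149, 150.4 and 210.0 at 0.25% and 36.8, 46.0 and 52.2 at 2%) and CAT8 by 1.58. Both were also called at 0.5% against 2%, ADR1 by 1.19 and CAT8 by 1.00, at which step HAP4 was not; these differences between genes were not tested. Given the 3' to 5' covariate, ADR1 was at 1.501 (adjusted p = 0.664) and CAT8 at 1.12 (0.999) at 0.25% against 2%, below the 1.86 of HAP4, and neither passed. The repressor gene MIG1, HXK2 of hexokinase and SNF1 of the derepressing kinase were at 0.21, 0.09 and -0.03 and did not pass.

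The 5 genes most like each member were ranked by Pearson's r of log2 signal over the 12 arrays, among genes brighter than the dim limit; the arrays share level and replicate number, and r is given as a description. For HAP4 they were TEC1, a transcription factor of filamentous growth (r = 0.918), NDE1, the external NADH dehydrogenase of mitochondria (0.897), YDL124W (0.893), ALD4, mitochondrial aldehyde dehydrogenase (0.888), and RPO41, the mitochondrial RNA polymerase (0.88). Their log2 differences at 0.25% against 2%, which ranking by likeness to HAP4 over the same arrays largely fixes, ran from 0.33 for TEC1 to 1.36 for ALD4. For the DNA-binding subunits the nearest genes were COX12 for HAP2 (r = 0.821), GRX2 for HAP3 (0.945) and YCK2 for HAP5 (0.922), and for HAP1 it was VHR2 (0.961).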

How the data were processed

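Total RNA was extracted with Trizol and labelled with biotin, 1 array per sample, per the labels. The deposited intensities are 1 linear signal per probe set, scaled by the authors to a trimmed mean of 500 per array (2% trimmed at either end, values above 0 only); no program is named in the labels. This scaling hides any change in total RNA per cell. Of 10928 probe sets, 5498 were named for a yeast gene through the platform annotation and RefSeq names, and the brightest per gene was kept (5449 genes). Log2 was taken after raising values under 1 to 1, and no dim filter was used.

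A mean per glucose level was fitted over all 12 arrays with limma 3.58.1 in R 4.3.3 (moderated tests with an intensity trend, two-sided, Benjamini-Hochberg adjusted p under 0.05 over all genes). A slope on log2 glucose and an F-test used the same fit, and 1 within-array difference was tested by exact permutation. Arrays limit the precision by their number: the median standard error was 0.125. In simulated data for 0.25% against 2% with 5449 genes, 78% of 1.5-fold, 100% of 2-fold and 98% of 3-fold changes in genes above the dim limit were recovered, with 9 false calls. The simulated noise was independent between arrays, without the replicate pairing or the RNA quality of the 2% arrays. HAP4 and HAP5 lie below the dim limit, so these rates do not cover them. The members and the 4 gene lists, written from textbook knowledge, were chosen with earlier results of these data known. Named genes are the members, the 5 genes most like each, the called and the largest uncalled list members (not all are printed), and 5 regulators of glucose repression. Replicates are numbered 1 to 3 within a level in the labels; deviations of same-numbered arrays from their level means correlated with r above 0.1 in 17 of 18 pairs (0.0975 to 0.413, across genes), and in all 3 pairs of every comparison but 0.5% against 2%. This bears out a pairing from the data, not from the labels. Promoter motifs were planned but not analysed here.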

Additional observations from a re-analysis of the deposited data

How the results depend on the processing

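HAP4 at 0.25% against 2% kept its direction and its call under every alternative that tested it except the 3' to 5' covariate (1.86, limma adjusted p = 0.363), chosen after seeing the data. That ratio separates all 2% arrays from the rest, so it and the 2% level are confounded, and the median standard error against 2% went up to 0.333, against 0.125 without it. The dim filter removed HAP4 and HAP5 from the test, so the members called by slope and by F-test were then 0. With the 3' to 5' covariate the members called by slope were also 0. It left 6, 3 and 0 genes called at 0.25%, 0.5% and 1% against 2%, with 0 Hap2/3/4/5 targets higher, 0 Hap1 targets higher and 0 hypoxic genes lower. Its reversed values were, at 0.25% against 2%, -0.25 for HAP1, -0.20 for HAP2 and -0.26 for ATP2; at 0.5% against 2%, -0.20 for HAP1; at 1% against 2%, -0.36 for HAP1, -0.29 for HAP2 and 0.27 for HAP3; at 0.5% against 1%, -0.031 for HAP5; and slopes of 0.060 for HAP1 and 0.066 for HAP2. The offset of 16 and averaging the probe sets of each gene left all 76 results the same. Tests kept their direction and side of the threshold, and counts stayed close to those of the main fit.

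The replicate block gave 562, 407 and 49 genes called at 0.25%, 0.5% and 1% against 2%, where the unblocked fit gave 237, 74 and 10. It gave 17 at 0.5% against 1% (4 unblocked), 13 at 0.25% against 0.5% (6) and 120 at 0.25% against 1% (52). With it 21 Hap2/3/4/5 targets, 3 Hap1 targets, 1 hypoxic gene and 1 haem synthesis gene were higher at 0.25% against 2%. At 0.25% against 1% it gave 8 Hap2/3/4/5 targets and 1 Hap1 target. Against 2% at 0.25% it raised CYC1, QCR7, QCR10, COX6, COX9, COX13, ATP2, ATP5, OLE1 and HEM2 past the threshold, and it changed no call of a HAP gene; the within-array slope of HAP4 had a blocked exact permutation p of 0.00217.

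Quantile normalization called 19 genes at 1% against 2% and 8 at 0.5% against 1%, and turned HAP3 at 0.25% against 0.5% to -0.0040. Median scaling called 121, 16 and 7 genes at 0.5% against 2%, 1% against 2% and 0.5% against 1%, and 1 target at 0.25% against 1%; HAP2 at 0.5% and HAP3 at 1% against 2% turned to 0.028 and 0.0029. With the compared levels alone 133, 48 and 6 genes were called at 0.25%, 0.5% and 1% against 2% and 25 at 0.25% against 1%, with 1 Hap1 target and, against 1%, 0 Hap2/3/4/5 targets. The dim filter left 1 Hap1 target. The ribosomal RNA covariate left 148 and 31 genes at 0.25% and 0.5% against 2% and 0 Hap1 targets; HAP1 was at -0.024, -0.020 and -0.13 at 0.25%, 0.5% and 1% against 2%, and HAP3 at 0.13 at 1%. In these settings the cause was not tested.

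Leaving out each of the 12 arrays gave 912 values, of which 816 stayed the same. For a test this meant the same direction and side of the threshold, and for a count a value close to that of the main fit. Genes called ranged from 115 to 240 at 0.25% against 2% (lowest without replicate 1 at 2%), 33 to 79 at 0.5%, 6 to 12 at 1%, 2 to 5 at 0.5% against 1%, 2 to 9 at 0.25% against 0.5% and 20 to 57 at 0.25% against 1%. Hap2/3/4/5 targets higher ranged from 7 to 14 at 0.25% against 2% and from 0 to 5 against 1%, and Hap1 targets from 0 to 2. Against 2%, HAP3 ranged from -0.011 to 0.16 at 0.25%, HAP2 from -0.098 to 0.045 and HAP3 from -0.13 to 0.10 at 0.5%, and HAP1 from -0.066 to 0.086, HAP2 from -0.0064 to 0.14, HAP3 from -0.14 to 0.12 and HAP4 from -0.13 to 0.16 at 1%. At 0.5% against 1%, HAP3 ranged from -0.10 to 0.16 and HAP5 from -0.10 to 0.15. At 0.25% against 0.5%, HAP1 ranged from -0.086 to 0.060, HAP3 from -0.028 to 0.21 and HAP5 from -0.0086 to 0.25. At 0.25% against 1%, HAP3 ranged from -0.038 to 0.22 and HAP5 from -0.0013 to 0.22.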

Other observations

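Beside the glucose level, the signals of HAP1 and HAP3 moved with the replicate number of the arrays. This was not particular to them: over all genes, deviations of same-numbered arrays correlated with r above 0.1 in 17 of 18 pairs. HAP1 was lowest on the array numbered 1 at every level, with signals of 395 at 0.25%, 427 at 0.5%, 377 at 1% and 364 at 2%. HAP3 was lowest on the array numbered 3 at every level, with 145 at 0.25%, 138 at 0.5%, 124 at 1% and 137 at 2%. Among the listed targets, genes likewise lowest on the array numbered 3 at every level included CYC1, QCR6, QCR7, QCR8, QCR10, COX6 and COX7. Those lowest on the array numbered 1 at every level included ACO1, KGD1 and ATP2. The share of all genes with such a pattern was not counted. With the replicate number as a block the standard error of the difference between 0.25% and 2% was 0.07 for HAP1 and 0.10 for HAP3, against 0.11 and 0.16 without it, and neither gene was called (limma adjusted p = 0.324 and 0.685). For HAP4 the standard error was 0.18 with the block and 0.19 without it.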
